A study of Mus musculus with 4 samples.

Results

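The 34 genes described here cover the synthesis of sterols, the control of that synthesis, sterol movement and storage inside the cell, and the efflux arm driven by the liver X receptors (LXRs). They were chosen by name, with earlier results of these data known. All 34 were found by their gene identifiers among the 48795 genes of the table. Expression was measured by RNA sequencing in macrophages grown from the bone marrow of C57BL/6 mice, after 5 days of culture in M-CSF (50 ng/ml), the growth factor that directs marrow cells to become macrophages, and medium with 10% fetal bovine serum. There were 2 libraries from cells transfected with IRF2 siRNAs and 2 from cells transfected with control siRNA, each at 50 nM and collected after 48 h. Short duplex RNAs of this kind lead to cleavage of the mRNA they pair with, and the targeted protein, IRF2, binds DNA and is best known for holding down interferon-responsive genes. Cells of both groups were transfected and grown in serum, and the labels leave unstated whether replicates were separate cultures or mice. The p-values therefore cover just the spread between these libraries, which may be technical.

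Cells make cholesterol from acetyl-CoA through mevalonate and squalene, and the transcription factor SREBP2 switches on nearly all enzymes of that route when sterols run low. SREBP2 is carried from the endoplasmic reticulum by SCAP, and INSIG proteins hold the pair back when sterols are plentiful. Sterol-derived ligands activate LXRs, which raise the exporters ABCA1 and ABCG1 and, through the ubiquitin ligase encoded by Mylip, remove lipoprotein receptors from the surface. Macrophages take up large amounts of lipoprotein and cell debris and depend on this efflux arm to get rid of cholesterol.

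None of the 34 genes passed the test between IRF2 siRNA and control siRNA. In edgeR's quasi-likelihood test with Benjamini-Hochberg adjustment over 13495 genes, 241 genes or 1.79% passed an adjusted p of 0.05, of which 69 (0.511%) rose and 172 (1.27%) fell. The smallest adjusted p-values among the sterol genes were 0.0936 for Srebf2, 0.127 for Pmvk and 0.16 for Abcg1. At an unadjusted p under 0.05 there were 7 of the 34, which is 2 with higher and 5 with lower values, while 10.9% of all genes tested reached that level, 3.61% above 0 and 7.33% below. DESeq2 called 2 of the 34, Pmvk and Srebf2, both lower with IRF2 siRNA, with adjusted p-values of 0.0157 and 0.0293, where it called 3.29% of all genes that it adjusted. The log2 ratio is that of IRF2 siRNA over control siRNA throughout, and its median was 0.02 over the 34 genes and −0.0015 over all genes tested.

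The promoters of the pathway are shown first. The genes were chosen for known roles that include control by SREBP2, so their motif shares are not independent of that choice. RefSeq promoters on GRCm38.p6, the window from 250 bases before to 50 bases after a start site, were matched by symbol for 28 of the 34 genes, with 37 promoters in all. Fdps, Fdft1, Sqle, Stard4, Npc1 and Abcg1 had none and were not searched. The box CCAAT, which the factor NF-Y binds together with SREBP2 at many sterol genes, was present on either strand in 15 of 16 synthesis genes, in 2 of 6 genes of the LXR group and in 41.1% of all 27025 genes with a promoter. Per promoter these shares were 78.9%, 22.2% and 37.4%. The shares over all genes were not limited to genes expressed in these cells. A sterol regulatory element of the letters TCACNCCAC, searched on both strands, was found in 1 of the 28, Hmgcs1, and in 1.44% of all genes. The interferon response core GAAANNGAA, the kind of letters that IRF proteins bind, occurred in Ebp and Apoe, 2 of the 28, against 9.76% of all genes. In these genes, no match of one motif overlapped a match of another. A match describes letters only, and absence from this window says nothing about binding.

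The 250 bases before the start site are printed 5′ to 3′ for 4 genes that span both arms, with CCAAT on either strand and the sterol element in capitals. Hmgcs1 is shown as the promoter holding the sterol element, at chr13:119690101-119690350 on the plus strand. Srebf2 at chr15:82147019-82147268 on the plus strand encodes SREBP2 itself. Msmo1 at chr8:64733579-64733828 on the minus strand is a synthesis gene with 3 CCAAT boxes, and Abca1 at chr4:53159896-53160145 on the minus strand stands for the LXR arm and has none. The start sites are those of RefSeq. In the GENCODE M21 annotation Msmo1 spans chr8:64718139-64733792 and Srebf2 chr15:82147181-82205379, so both printed windows reach into the gene.
Hmgcs1: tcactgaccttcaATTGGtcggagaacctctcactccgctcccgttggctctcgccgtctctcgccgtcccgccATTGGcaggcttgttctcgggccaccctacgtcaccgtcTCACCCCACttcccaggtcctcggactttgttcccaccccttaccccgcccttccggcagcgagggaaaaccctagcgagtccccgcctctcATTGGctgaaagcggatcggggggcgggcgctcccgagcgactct
Srebf2: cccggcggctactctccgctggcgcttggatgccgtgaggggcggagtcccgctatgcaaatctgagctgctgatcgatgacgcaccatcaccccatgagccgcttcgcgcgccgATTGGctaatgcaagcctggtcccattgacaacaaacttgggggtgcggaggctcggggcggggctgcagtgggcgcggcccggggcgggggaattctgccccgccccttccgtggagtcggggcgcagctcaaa
Msmo1: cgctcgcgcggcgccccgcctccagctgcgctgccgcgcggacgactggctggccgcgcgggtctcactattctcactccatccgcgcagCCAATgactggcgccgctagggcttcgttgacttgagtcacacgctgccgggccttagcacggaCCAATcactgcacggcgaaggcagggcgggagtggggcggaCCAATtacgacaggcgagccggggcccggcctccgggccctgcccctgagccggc
Abca1: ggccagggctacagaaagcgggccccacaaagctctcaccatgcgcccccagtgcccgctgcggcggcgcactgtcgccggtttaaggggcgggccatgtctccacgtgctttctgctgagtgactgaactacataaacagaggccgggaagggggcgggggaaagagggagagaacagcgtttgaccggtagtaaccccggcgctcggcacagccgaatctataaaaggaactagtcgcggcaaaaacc
The Hmgcs1 sterol element began 137 bases before the start site, between CCAAT boxes at 176 and 45 bases before it.

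Reads in genes numbered 26378584 and 26895100 in the IRF2 siRNA libraries and 29862296 and 32273565 in the control libraries. Irf2 itself, the check of the labels, had 1482 and 1529 reads with IRF2 siRNA and 4758 and 4934 with control siRNA, and fell 2.82-fold, at an edgeR adjusted p of 0.00477. All 8 macrophage markers were at 207.5 CPM (counts scaled to library size) or more in every library, and none passed the edgeR test. The macrophage marker Cd14 had 396 and 377 CPM with IRF2 siRNA and 595 and 508 CPM with control siRNA, a log2 ratio of −0.51 at an edgeR adjusted p of 0.131, and its part in the results was not tested. Markers of T and NK cells stayed at or below 0.0615 CPM. Summed neutrophil markers were at 11.6 to 14.4 CPM with IRF2 siRNA and 10.4 to 11.2 CPM with control siRNA, and fibroblast markers at 10.2 to 12.4 CPM with IRF2 siRNA and 8.37 to 11.7 CPM with control siRNA. Dendritic cell markers summed to 14.0 and 14.5 CPM with IRF2 siRNA and 22.8 CPM in both control libraries, mostly Itgax. Itgax had 12.3 and 11.7 CPM with IRF2 siRNA and 19.6 and 19.7 CPM with control siRNA, at an edgeR adjusted p of 0.0548. The others were at or below 1.52 CPM. Dpp4 and Xcr1 were lower in both IRF2 siRNA libraries, Zbtb46 was higher in both, and Clec9a overlapped. Flt3 and Ccr7 were too low to test. The part of dendritic cell markers in the results was not tested.

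The control libraries differed from each other in a way that followed exon length, and several sterol genes sit at the ends of that range. Exon length here merges all annotated exons of a gene, so it can exceed the length of its mRNA. The log2 gap between control replicate 2 and control replicate 1 had a median of −0.29 over 2570 tested genes with up to 2000 bases of exon and of 0.22 over 3843 genes above 6000 bases. Between the IRF2 siRNA libraries these medians were −0.13 and 0.10. Abca1, with 10363 bases, was at 0.59, and Apoe and Pmvk, with 2138 and 1713 bases, were both at −0.59. Srebf2, Scap and Abcg1, with 7184, 7443 and 7298 bases, were at 0.19, 0.06 and 0.15. The gap between controls exceeded the log2 ratio in size for 17 of the 34 genes and for 63.5% of all genes tested. The part of length in the results was not tested.

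**Figure D1:**
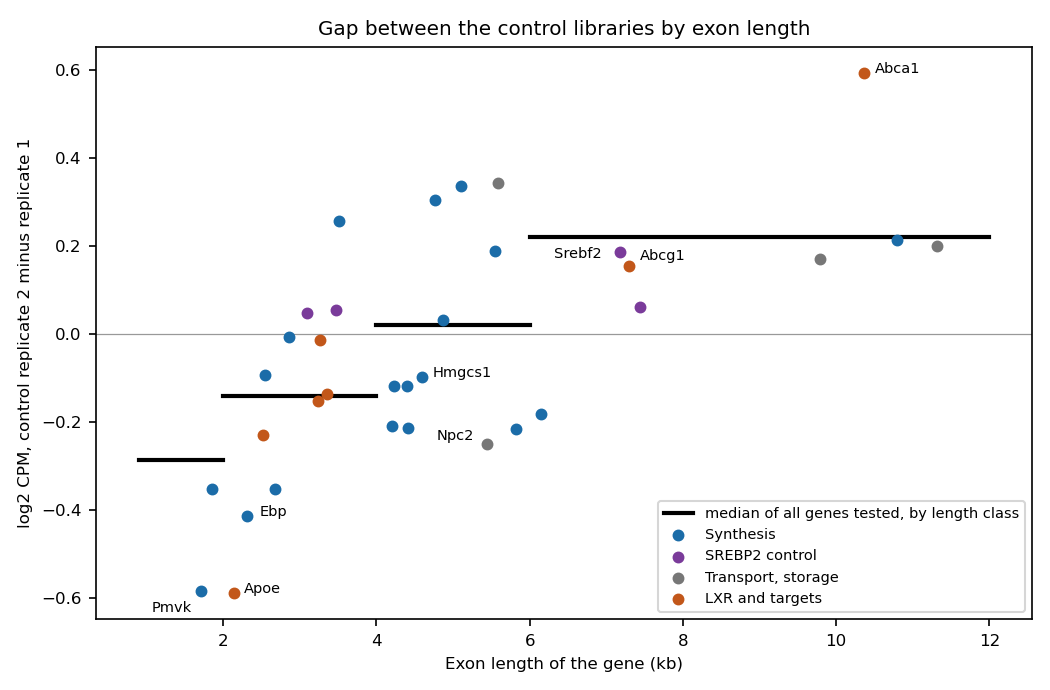
Log2 CPM of control replicate 2 minus control replicate 1 for each of the 34 genes, against its exon length in kb, coloured by role, with the median of all genes tested in each length class as a black line. Abca1 is highest at 0.59, and Pmvk and Apoe are lowest at −0.59.

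Levels spanned a wide range, and the most abundant genes belonged to efflux and lysosomal transport. On the scale of RPKM, reads per kilobase of exon scaled to library size, Apoe, the lipoprotein component that macrophages secrete, averaged 6964 with IRF2 siRNA and 7309 with control siRNA. Abca1, the exporter to lipid-poor apolipoprotein, averaged 74.5 RPKM with IRF2 siRNA and 70.6 RPKM with control siRNA. Npc2, the soluble sterol carrier of the lysosome, averaged 295.6 RPKM with IRF2 siRNA and 303.7 RPKM with control siRNA. The most abundant synthesis gene per length was Ebp, a sterol isomerase late in the route, with 20.2 RPKM with IRF2 siRNA and 20.3 RPKM with control siRNA. Hmgcs1, the synthase at the entry to mevalonate, averaged 7.68 RPKM with IRF2 siRNA and 9.31 RPKM with control siRNA. Of the 4 genes controlling SREBP2, Insig1 had the highest mean over all 4 libraries, at 8.72 RPKM with IRF2 siRNA and 10.4 RPKM with control siRNA, while Srebf2 had 7.25 RPKM with IRF2 siRNA and 10.7 RPKM with control siRNA. Fdps, which makes farnesyl diphosphate, was lowest at 0.151 RPKM with IRF2 siRNA and 0.136 RPKM with control siRNA. Its exons share 1124 of 4208 bases with Gm43738 on the same strand. Reads shared between genes or aligned more than once were not counted, so the level of Fdps is uncertain.

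**Figure D2:**
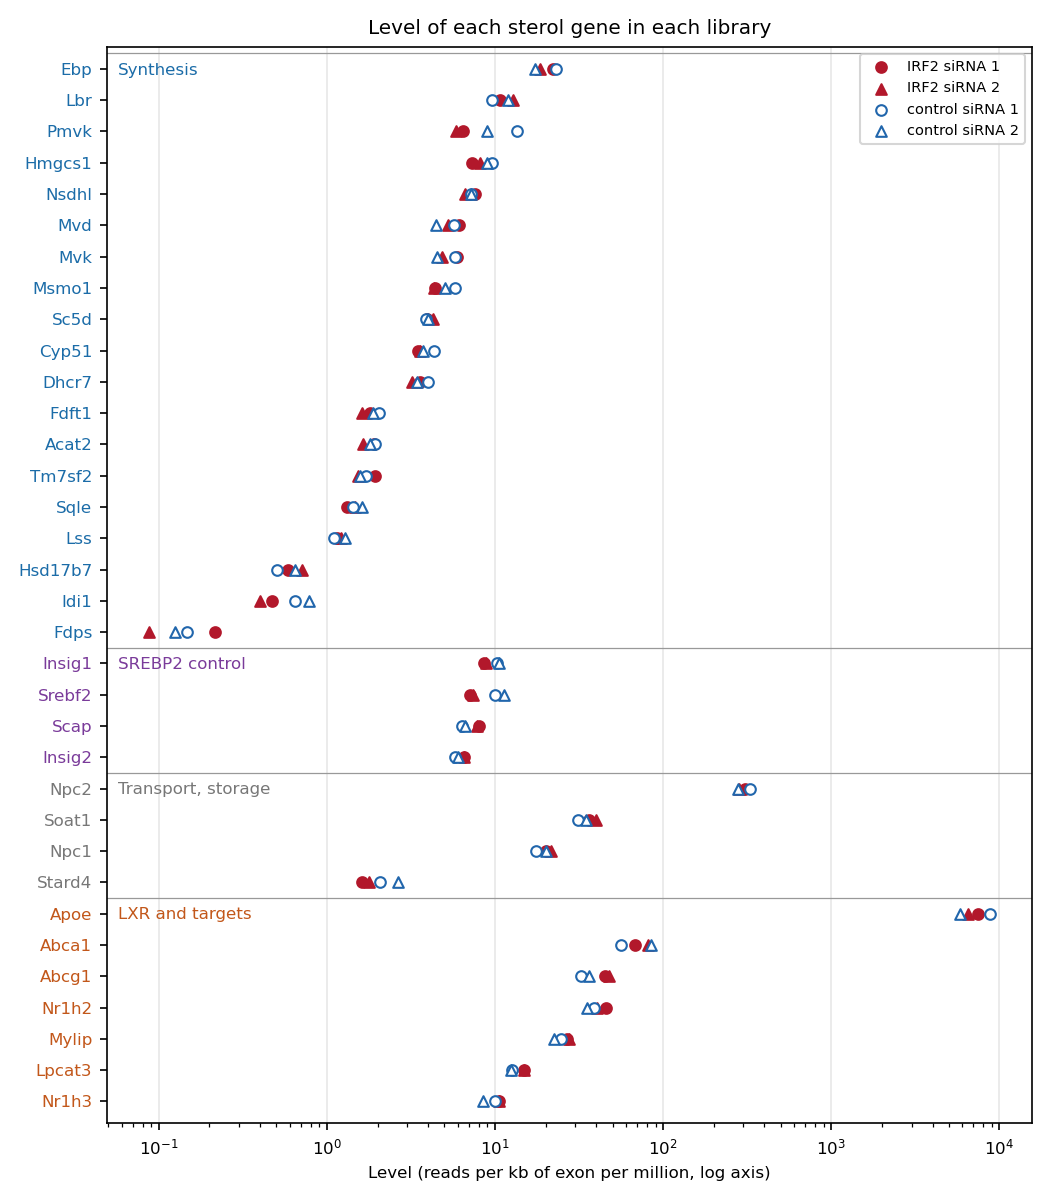
Level of each of the 34 genes in each library, in RPKM on a log axis, grouped by role (filled red: IRF2 siRNA; open blue: control siRNA; circle: replicate 1; triangle: replicate 2). Apoe averages 6964 with IRF2 siRNA and Npc2 295.6, while Ebp, the highest synthesis gene, averages 20.2.

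Among the 19 synthesis genes, none rose or fell in the edgeR test and DESeq2 called Pmvk. The median log2 ratio was −0.02, with 7 genes above 0 and 12 below, where 49.7% of all genes tested lay above 0. Both IRF2 siRNA libraries lay below both control libraries for 6 of the 19, Pmvk, Idi1, Msmo1, Hmgcs1, Cyp51 and Fdft1, and above them for none. Over all genes tested, 19.4% had both IRF2 siRNA libraries below and 19.0% had both above, so 38.4% did not overlap. Summed over the 19 enzymes, CPM values were 323.0 and 318.3 in the IRF2 siRNA libraries and 355.9 and 329.8 in the control libraries. Both IRF2 siRNA totals lay below both control totals, but the gap to control replicate 2 was smaller than the gap between the controls. In RNA from whole cultures, fewer cells of a type and less RNA per cell cannot be told apart.

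Pmvk, the kinase that phosphorylates mevalonate phosphate, had the log2 ratio furthest from 0 of the 34. The gene lies at chr3:89454541-89469013 on GRCm38, where gene positions are those of GENCODE M21. It stood at 10.99 and 9.98 CPM in the IRF2 siRNA libraries, against 23.1 and 15.4 CPM in control replicates 1 and 2. Both IRF2 siRNA values lay below both controls, and the controls were further from each other than control replicate 2 was from the IRF2 siRNA libraries. The log2 ratio was −0.88 (SE 0.21), a 1.84-fold lower mean, and the edgeR adjusted p was 0.127. Without control replicate 1 the log2 ratio was −0.55, and without control replicate 2 it was −1.14. Such fits leave 1 control library, so their spread comes from the IRF2 siRNA pair alone, which differed less than the controls did. For that reason fits that leave out a library are given for single genes as log2 ratios only. Their counts of calls appear only under the dependence on processing, and no conclusion is drawn from them.

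Idi1, the isomerase that makes dimethylallyl diphosphate, had 1.66 and 1.39 CPM with IRF2 siRNA and 2.27 and 2.74 CPM with control siRNA. These rest on 44 and 38 reads in the IRF2 siRNA libraries and 66 and 89 reads in the controls, few enough for counting error to matter. The edgeR log2 ratio was −0.72 (SE 0.24), with an adjusted p of 0.313. Without control replicate 1 the log2 ratio was −0.84, and without control replicate 2 it was −0.57.

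Msmo1, a monooxygenase that acts in the removal of methyl groups from the sterol ring, had 26.8 and 26.7 CPM with IRF2 siRNA against 35.3 and 31.1 CPM with control siRNA. The IRF2 siRNA values were nearly equal and both below the controls, with a log2 ratio of −0.31 and the edgeR adjusted p 0.438. Without control replicate 1 the log2 ratio was −0.21, and without control replicate 2 it was −0.40. Hmgcs1, whose promoter is printed above and whose exons overlap Gm48342 on the opposite strand, had 33.4 and 37.1 CPM with IRF2 siRNA against 44.2 and 41.3 CPM with control siRNA. Its log2 ratio was −0.28, with a 95% interval from −0.57 to 0.02 and the edgeR adjusted p 0.493. Cyp51, the lanosterol demethylase, and Fdft1, squalene synthase, had log2 ratios of −0.18 and −0.20. Fdft1 shares exon bases with Ctsb and Cyp51 with Akap9, both on the opposite strand. Whether counting used strand is not stated in the labels, so genes with such overlaps, here also Hmgcs1, Idi1, Lss, Lbr, Scap, Npc1 and Lpcat3, have uncertain values, as do Tm7sf2 and Nr1h3, which overlap Vps51 and Gm13783 on the same strand.

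The remaining 13 synthesis genes overlapped between groups. Sqle, squalene epoxidase, a control point of the later pathway, had 7.25 and 8.18 CPM with IRF2 siRNA and 7.89 and 9.004 CPM with control siRNA. Lss, lanosterol synthase, had a log2 ratio of −0.02 with a 95% interval from −0.37 to 0.33. Dhcr7, the final reductase, had −0.12 with an interval from −0.46 to 0.22, and Sc5d, the desaturase before it, 0.05 with an interval from −0.25 to 0.36. Among enzymes of the mevalonate steps, log2 ratios were −0.08 for the thiolase gene Acat2, 0.07 for mevalonate kinase Mvk and 0.17 for the decarboxylase gene Mvd. Nsdhl, which removes a carboxyl group from the sterol ring, had −0.01. Ebp had 50.9 and 42.6 CPM with IRF2 siRNA and 53.5 and 40.2 CPM with control siRNA, so the groups overlapped, with a log2 ratio of −0.0023. The sterol reductase genes Lbr and Tm7sf2 had 0.12 and 0.07, the ketoreductase gene Hsd17b7 0.17, and Fdps 0.15 with the widest interval of the 34, from −1.03 to 1.34. These intervals leave room for differences in either direction, most of all for Fdps.

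For each of the 4 genes that control SREBP2 the groups did not overlap, with 2 lower and 2 higher, where 38.4% of all genes tested did not overlap. Srebf2 and Insig1 were lower and Scap and Insig2 higher in both IRF2 siRNA libraries, and none passed the edgeR test. Srebf2, at chr15:82147181-82205379, had 51.0 and 53.2 CPM in the IRF2 siRNA libraries, against 71.7 and 81.6 CPM in the control libraries. The groups lay further apart than the replicates of either, and the means differed 1.47-fold, lower with IRF2 siRNA. Its log2 ratio was −0.56 (SE 0.12), with a 95% interval from −0.85 to −0.27, and the edgeR adjusted p was 0.0936. Without control replicate 1 the log2 ratio was −0.64, and without control replicate 2 it was −0.46.

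Scap, the escort of SREBP2, had 59.8 and 57.9 CPM with IRF2 siRNA and 47.2 and 49.2 CPM with control siRNA, with a log2 ratio of 0.29 and the edgeR adjusted p 0.404. Insig1, itself a target of SREBP2, had 26.6 and 27.3 CPM with IRF2 siRNA against 31.6 and 32.6 CPM with control siRNA. The replicates were close in both groups, and the log2 ratio was −0.25 at an edgeR adjusted p of 0.529. Insig2, its relative, had 22.7 and 22.6 CPM with IRF2 siRNA against 20.0 and 20.8 CPM with control siRNA, a log2 ratio of 0.15 at an edgeR adjusted p of 0.826.

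**Figure D3:**
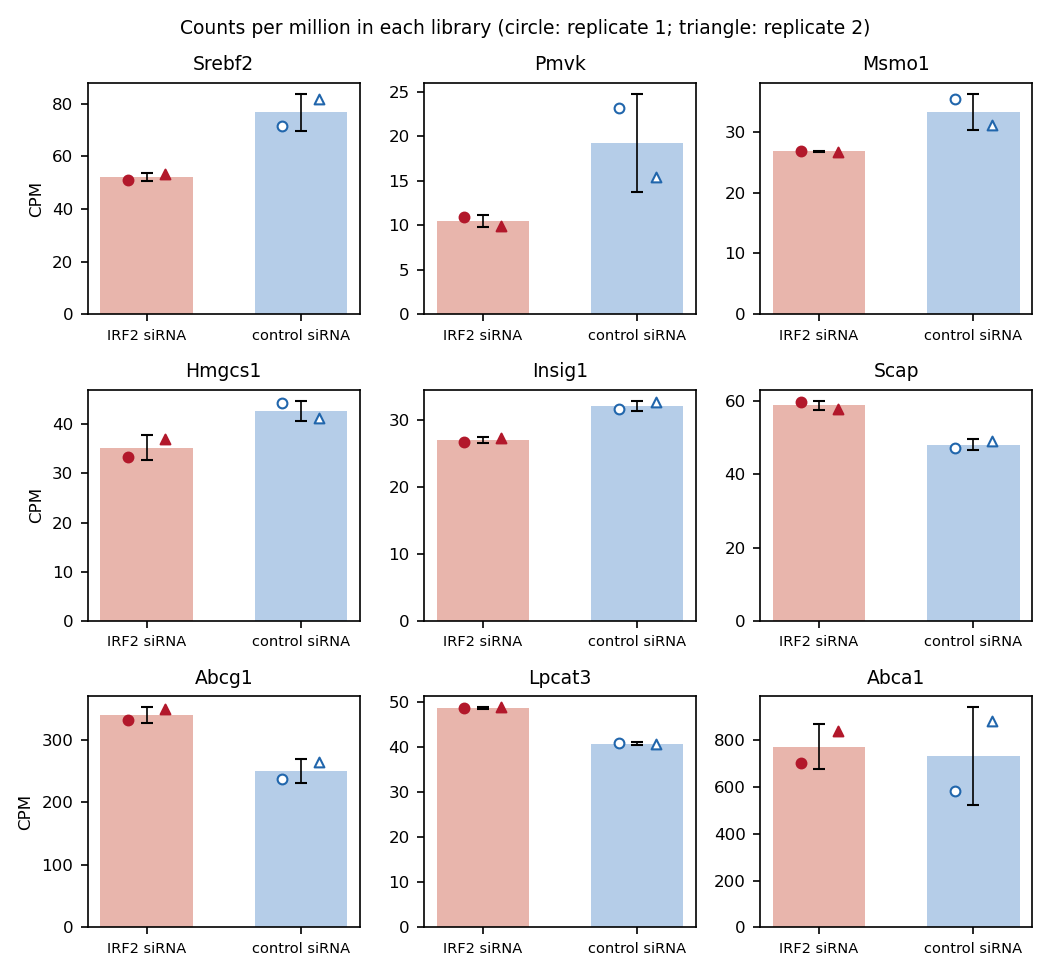
CPM of 9 genes in each library (points) with the group mean (bar) and SD (whisker, n = 2 each), IRF2 siRNA left and control siRNA right. Srebf2 lies at 51.0 and 53.2 CPM with IRF2 siRNA against 71.7 and 81.6 CPM with control siRNA, Abcg1 is higher with IRF2 siRNA, and the Abca1 libraries overlap.

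Of the genes for transport and storage, Stard4, a soluble protein that moves sterol between membranes and a known SREBP2 target, had both IRF2 siRNA libraries below both controls. It had 9.06 and 9.91 CPM in the IRF2 siRNA libraries and 11.6 and 14.8 CPM in the control libraries, a log2 ratio of −0.48 at an edgeR adjusted p of 0.344. Leaving out 1 library at a time gave log2 ratios from −0.63 to −0.29. Npc1, the lysosomal membrane protein that exports cholesterol, had 228.7 and 242.9 CPM with IRF2 siRNA and 196.9 and 226.2 CPM with control siRNA, and its partner Npc2 overlapped between groups at 1672 and 1544 CPM with IRF2 siRNA and 1794 and 1509 CPM with control siRNA. Soat1, the enzyme that esterifies cholesterol for storage in droplets, had 353.8 and 387.5 CPM with IRF2 siRNA and 303.8 and 341.8 CPM with control siRNA. Both Npc1 and Soat1 were therefore slightly higher in both IRF2 siRNA libraries, with log2 ratios of 0.16 and 0.20 and edgeR adjusted p-values of 0.808 and 0.695.

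In the LXR group, 6 of 7 genes had a log2 ratio above 0, where 49.7% of all genes tested did. The median was 0.20, with none past the test. Both IRF2 siRNA libraries were above both controls for 5 of the 7, Abcg1, Lpcat3, Mylip, Nr1h2 and Nr1h3, and below for none, against the 19.0% and 19.4% of all genes given above. Abcg1, which lies at chr17:31057675-31117988 and exports cholesterol to high-density lipoprotein, had 331 and 349 CPM in the IRF2 siRNA libraries, against 237 and 264 CPM in the control libraries. The groups were further apart than either pair of replicates, 1.36-fold on the means, with a log2 ratio of 0.44 (SE 0.12) and the edgeR adjusted p 0.16. Leaving out control replicate 1 or 2 gave log2 ratios of 0.37 or 0.52.

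Abca1, the other LXR-driven exporter, at chr4:53030787-53159895, did not separate. It had 704.1 and 839.7 CPM with IRF2 siRNA and 583.0 and 879.7 CPM with control siRNA, so both IRF2 siRNA values fell inside the range of the controls. The log2 ratio was 0.08 with a 95% interval from −0.41 to 0.57 and the edgeR adjusted p 0.981. That ratio was −0.19 without control replicate 1 and 0.40 without control replicate 2. Apoe, whose gene lies at chr7:19696109-19699188, also had both IRF2 siRNA values inside the control range, with the higher control being the other replicate, at 15969 and 13811 CPM with IRF2 siRNA and 18774 and 12479 CPM with control siRNA. Its log2 ratio was −0.07, and it was 0.26 without control replicate 1 and −0.33 without control replicate 2.

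The receptors themselves were Nr1h3 (LXR alpha), with 26.6 and 26.5 CPM with IRF2 siRNA and 25.2 and 21.4 CPM with control siRNA, and Nr1h2 (LXR beta), with 153.8 and 134.9 CPM with IRF2 siRNA and 130.1 and 118.4 CPM with control siRNA. Per length, Nr1h2 was the more abundant of the pair, at 43.0 RPKM with IRF2 siRNA and 37.1 RPKM with control siRNA, where Nr1h3 had 10.6 RPKM with IRF2 siRNA and 9.27 RPKM with control siRNA. The log2 ratios of Nr1h3 and Nr1h2 were 0.19 and 0.22, and their edgeR adjusted p-values 0.772 and 0.659. Lpcat3, an enzyme that loads polyunsaturated fatty acids into phospholipids, had 48.6 and 48.9 CPM with IRF2 siRNA against 41.0 and 40.6 CPM with control siRNA. Replicates of Lpcat3 differed by under 1 CPM in each group, with a log2 ratio of 0.26 and the edgeR adjusted p 0.481. Mylip had 86.4 and 88.6 CPM with IRF2 siRNA and 80.0 and 72.0 CPM with control siRNA, a log2 ratio of 0.20 at an edgeR adjusted p of 0.658.

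**Figure D4:**
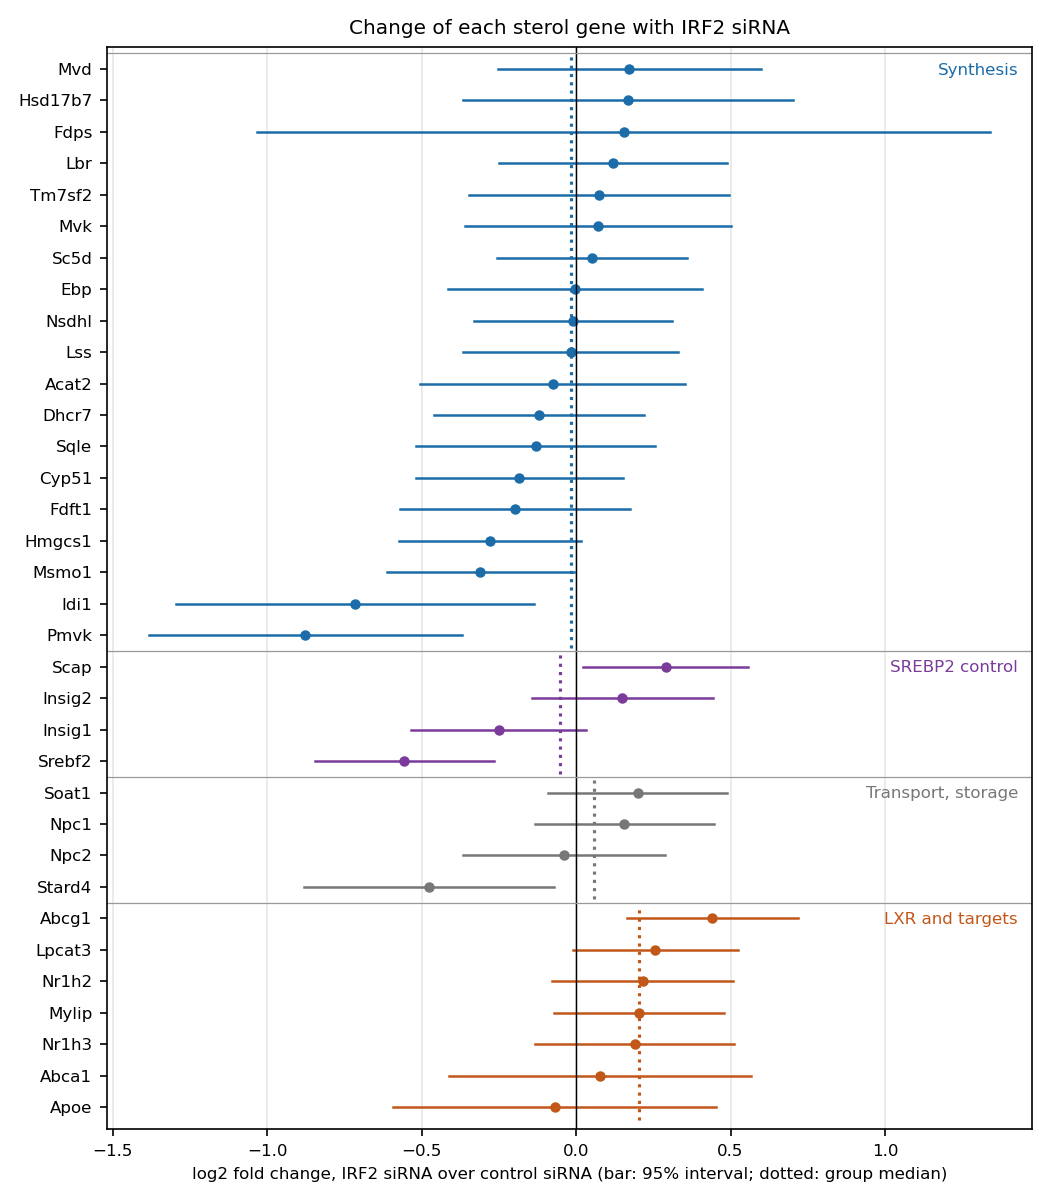
Log2 ratio of each gene, IRF2 siRNA over control siRNA, with its 95% interval, by role, and the median of each role as a dotted line. Pmvk, Idi1, Srebf2, Stard4, Msmo1, Abcg1 and Scap have intervals that leave out 0 before adjustment, and the LXR median lies at 0.20 against −0.02 for synthesis.

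Other genes of lipid handling were counted in the same way. Of 71 genes tested in 5 further lists, none rose or fell in the edgeR test, and 10 reached an unadjusted p under 0.05, 5 above and 5 below 0, where 10.9% of all genes did. DESeq2 called 3 of the 71, Msr1, Cxcl16 and Lpl, where it called 3.29% of all genes. Among scavenger and lipoprotein uptake genes, 11 of 12 were tested, with a median of −0.01. Msr1, scavenger receptor A, had 183 and 204 CPM with IRF2 siRNA against 124 and 137 CPM with control siRNA, with a log2 ratio of 0.57 and the edgeR adjusted p 0.0835. Cxcl16, a chemokine that also binds oxidised lipoprotein, had 257 and 246 CPM with IRF2 siRNA against 421 and 348 CPM with control siRNA, with −0.61 and 0.0864. Its exons overlap Zmynd15 on the opposite strand. Leaving out control replicate 1 or 2 gave log2 ratios of 0.505 or 0.638 for Msr1, −0.466 or −0.743 for Cxcl16 and −0.488 or −0.597 for Lpl.

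Of the LXR partners and further targets, 14 of 17 were tested, with a median of −0.0024. Lpl, the lipase that releases fatty acids from lipoproteins, had 1580 and 1461 CPM with IRF2 siRNA and 2299 and 2137 CPM with control siRNA. The groups were well apart, with a log2 ratio of −0.54 (SE 0.12) and the edgeR adjusted p 0.106. Smpdl3a, an LXR-induced phosphodiesterase, lay on the other side, with 528 and 496 CPM with IRF2 siRNA and 406 and 386 CPM with control siRNA, a log2 ratio of 0.37 and the edgeR adjusted p 0.232. Genes of fatty acid synthesis had 16 of 20 tested, a median of 0.14, and their smallest p-values in the desaturase gene Fads2, with a log2 ratio of −0.96 and the edgeR adjusted p 0.219, and the elongase gene Elovl5, with −0.33 and 0.288. Among ester and oxysterol enzymes, 7 of 10 were tested, with a median of 0.05. Ch25h, the interferon-inducible enzyme that makes an oxysterol able to suppress SREBP processing, had 15 and 22 reads with IRF2 siRNA and 11 and 7 with control siRNA, a log2 ratio of 1.22 (SE 0.48) and the edgeR adjusted p 0.413. Soat2 had the next smallest p there, with 0.27 and 0.907. All 23 genes of further sterol transport and regulation were tested, with a median of 0.04, and Stard5 and Osbpl9 had 0.26 and 0.23, at edgeR adjusted p of 0.508 and 0.517.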

How the data were processed

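RNA sequencing was available for 2 IRF2 siRNA and 2 control siRNA libraries of mouse macrophages. What the authors deposited is 1 table of unnormalized read counts, with a value for each gene and library. The submitters' processing notes name bcl2fastq 2.18.0.12, STAR 2.5.2b, HTSeq 0.6.0, DESeq2 and the build mm10, while no source used here gives the annotation release or strand setting. The 5 summary rows, 23.1% to 24.4% of column totals and including reads shared between genes or aligned more than once, were left out.

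Symbols, exon lengths and overlaps were taken from GENCODE M21 (GRCm38, the same assembly as mm10). Counts were tested in R 4.3.3 with edgeR 4.0.16 (filterByExpr at a minimum count of 10 and total of 15, TMM factors, glmQLFit with legacy = FALSE, glmQLFTest, no block), and p-values were adjusted over all 13495 genes. The biological coefficient of variation was 12.6%. The standard error (SE) was obtained as the size of the log2 ratio over the root of the F statistic, and 95% intervals use the matching t quantile. CPM and RPKM use TMM-scaled library sizes, and RPKM uses the merged exon length. Replicates differed beyond sampling noise, with a chi-square of 9.32 per degree of freedom between IRF2 siRNA libraries and 46.2 between controls. The fit was also run on simulated data with the same spread in every library, which does not copy the larger gap between the controls.

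The genes and lists were chosen with earlier results of these data known. By rule, all 34 are named. Values in every library go to any that pass, the 8 with the smallest p, the highest RPKM of each role, and Srebf2, Nr1h3, Nr1h2, Abca1, Abcg1, Insig1 and Hmgcs1. Each further list has its passing genes named, or the 2 with the smallest p. Values by library for Sqle, Insig2, Npc1, Soat1 and Mylip were added after they were seen. Acat2 is counted with synthesis, although it was first listed under transport and storage. Alternatives were DESeq2 1.42.0, limma-voom (limma 3.58.1), other scalings and filters, a replicate block and leaving out each library, where a group of 1 library is assumed to vary like the other.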

Additional observations from a re-analysis of the deposited data

How the results depend on the processing

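Of the 34 sterol genes, 22 kept the sign of their log2 ratio under every alternative. The number past the threshold stayed at 0 with other scalings, other filters and limma-voom. It was 2 with DESeq2, both lower, and ranged from 0 to 6 on leaving out a library (0 to 2 rose, 0 to 4 fell), with the calls made when a control library was left out. With the replicate number as a block it was 7 of the 34, of which 2 rose and 5 fell. The block also raised the calls over all genes, from 241 of 13495 to 1521, so more calls were not particular to the sterol genes. Calls on leaving out a library rest on the spread of the group that keeps both libraries. Their numbers therefore cannot show whether a gene differs. The labels do not pair same-numbered libraries, and the deviations of same-numbered libraries from their group means had a correlation of 0.373 across genes. For all genes the main counts of 241, 69 and 172 (called, rose, fell) became 72, 31 and 41 with no filter, 400, 120 and 280 with DESeq2, 1521, 503 and 1018 with the block, and 237 to 1770, 62 to 710 and 171 to 1060 on leaving out a library. In the further lists the count of 0 became 3 with DESeq2 (1 rose, 2 fell), 13 with the block (7 rose, 6 fell) and 0 to 13 on leaving out a library (0 to 8 rose, 0 to 10 fell).

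The 12 genes that changed sign all had small log2 ratios. Ebp, at −0.0023, was 0.00073 with DESeq2 size factors, 0.027 with library size alone, 0.0048 with DESeq2, 0.0069 with limma-voom and 0.0055 with the block. With library size alone Lss was 0.0070 and Nsdhl 0.015. On leaving out a library, the range was −0.19 to 0.40 for Abca1, −0.18 to 0.034 for Acat2, −0.33 to 0.26 for Apoe, −0.20 to 0.22 for Ebp, −0.62 to 0.67 for Fdps, −0.022 to 0.28 for Lbr, −0.12 to 0.095 for Lss, −0.10 to 0.26 for Mvk, −0.16 to 0.094 for Npc2, −0.11 to 0.090 for Nsdhl, −0.0079 to 0.12 for Sc5d and −0.094 to 0.23 for Tm7sf2. The causes were not tested. Low read counts limit Fdps, with 10 to 24 reads per library, and Ch25h, with 7 to 22.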
